A study of Mus musculus with 25 samples.

Results

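Colon RNA of NEMOIEC-KO Il23a-/- mice, in which colitis arises on an epithelial NEMO deletion and the p19 chain of IL-23 is also missing, was compared with that of Nemofl/fl control mice. The comparison uses 10 of the 25 libraries of the study: the 5 columns labelled NEMOIEC-KO Il23a-/- (replicates 1 to 5) and the 5 labelled Nemofl/fl. All mice were of the C57BL/6 strain background, 6 weeks old and fed a regular chow, and RNA came from distal colon with poly(A) selection and a stranded kit. Nemofl/fl mice carry the floxed allele of Ikbkg, which encodes NEMO, with the gene intact, and serve as controls. NEMOIEC-KO mice lack NEMO in intestinal epithelial cells, and the NEMOIEC-KO Il23a-/- mice lack Il23a in all cells besides. The other groups of 5 mice each are NEMOIEC-KO, NEMOIEC-KO Il12b-/- (no p40) and NEMOIEC-KO Il12a-/- (no p35). The promoter that drives the epithelial deletion is not given in the sources used here, and no group carries Il23a-/- without the NEMO deletion, so an effect of p19 loss in healthy colon was not analysed here.

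NEMO is the regulatory subunit of the IkB kinase complex and is required for canonical NF-kB activation. IL-23 is a dimer of p19 and p40, and shares p40 with IL-12, whose other chain is p35. IL-23 acts on lymphocytes that make IL-17 and IL-22, and those cytokines induce antimicrobial and oxidant-producing genes in gut epithelium, whereas IL-12 favours lymphocytes that make interferon-gamma. Interferon-gamma acts on promoters that hold gamma-activated sites (GAS), and type I interferons act on those that hold interferon-stimulated response elements (ISRE). The levels below are FPKM, the fragments counted per transcript length and per library depth, and fold changes are differences of log2(FPKM + 0.5) from limma, with p-values adjusted over 19266 genes by the Benjamini-Hochberg method and a gene called at an adjusted p under 0.05.

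The groups differ in more than genotype. RNA of sex-linked genes read as male in 5 of 5 Nemofl/fl libraries and as female in 4 of 5 NEMOIEC-KO Il23a-/- libraries, the exception being replicate 2. The library code in the labels was K002000081 for every Nemofl/fl library, K002000079 for replicates 1 to 4 of the NEMOIEC-KO Il23a-/- group and K002000080 for its replicate 5, so that code and group cannot be told apart within these 10 libraries. A smooth muscle score, the mean centred log2 level of the smooth muscle markers, ran from -0.52 to 1.32 in the controls and from -1.27 to 0.40 in the NEMOIEC-KO Il23a-/- libraries, and mitochondrially encoded RNA made up 6.92 to 13.3% of FPKM in the controls and 2.84 to 8.52% in the others. Relative depth, read from the steps between low FPKM values, was 0.70 in replicate 5 of the NEMOIEC-KO Il23a-/- group and at most 1.13 in any of the 10. The number of reads per library is unknown, so no counting interval is given. In these bulk samples, more cells of a type and more RNA per cell cannot be told apart.

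The deleted epithelial gene fell as labelled, and the p19 gene could not be checked by its RNA. Ikbkg (chrX:74393290-74453854, + strand) stood at 3.63, 3.86, 2.93, 3.13 and 3.17 FPKM in the NEMOIEC-KO Il23a-/- libraries and at 11, 8.27, 8.35, 9.28 and 8.49 FPKM in the controls (log2 fold change -1.32, SE 0.13, adjusted p = 3.64e-07), with no overlap. Whole tissue also holds cells outside the epithelium, which keep the gene. Il23a itself (chr10:128296139-128298752) was at 0.214 ± 0.0427 FPKM (SD, n = 5) against 0.251 ± 0.0905 in the controls and 0.311 ± 0.308 in NEMOIEC-KO, a level so low in every group that it neither supports nor contradicts the label. Il12a was at 0.352 ± 0.0992 against 0.331 ± 0.0891 FPKM, and Il12b at 0.0909 ± 0.0288 against 0.034 ± 0.0245. Neither of these passed the test, with adjusted p = 0.925 and 0.253.

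The largest increases were led by interferon-induced, antigen presentation and secreted defence genes, and the largest decreases held genes of epithelial metabolism such as Cyp2c55 and Ces1f. Of the 19266 genes, 5686 (29.5%) were called, 2420 of them higher (12.6%) and 3266 lower (17%), and the median change over all genes was -0.05. By at least 2-fold, 514 were higher (2.67%) and 433 lower (2.25%). Groups that did not overlap held 1631 higher genes (8.47%) and 1435 lower genes (7.45%). With sex as a further term 1129 of the 5686 calls were kept, with the library code 1440, with the smooth muscle score 412, and with each of these in turn 312, of which 212 were higher and 100 lower. Over all 19266 genes these 3 fits called 534, 1015 and 264 higher and 633, 576 and 160 lower. The counts of list members under these terms fell along with those totals in many lists, but not in all. Calls of MHC class I and immunoproteasome genes went from 20 to 19, 19 and 19, and of MHC class II genes from 8 to 7, 7 and 7. For the type I interferon response they went from 26 to 25, 16 and 21, and for interferon-gamma signalling and targets from 17 to 12, 11 and 10. NEMOIEC-KO Il23a-/- replicate 5, alone in its code, carries no weight in the library code fit. Leaving out each of the 10 libraries in turn kept 2857 calls.

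The promoters of 4 interferon-inducible GTPase genes and of the transcription factor Irf1 are printed, chosen after their values and motif matches were seen, to show how the motif letters lie in genes that rose. Each sequence is the 120 bases before the annotated start, 5′ to 3′ on the gene's own strand, from RefSeq on GRCm38.p6, with ISRE cores (GAAA, any 2 bases, GAAA) and GAS letters (TTCNNNGAA) found on either strand in capitals.
Igtp: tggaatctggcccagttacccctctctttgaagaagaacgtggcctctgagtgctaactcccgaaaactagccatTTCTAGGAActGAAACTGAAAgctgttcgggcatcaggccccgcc
Irgm2: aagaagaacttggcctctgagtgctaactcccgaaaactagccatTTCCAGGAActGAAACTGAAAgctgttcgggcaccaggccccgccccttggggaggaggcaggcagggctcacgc
Tgtp1: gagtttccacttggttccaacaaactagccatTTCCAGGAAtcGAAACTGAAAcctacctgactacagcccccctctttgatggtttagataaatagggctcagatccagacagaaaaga
Gbp7: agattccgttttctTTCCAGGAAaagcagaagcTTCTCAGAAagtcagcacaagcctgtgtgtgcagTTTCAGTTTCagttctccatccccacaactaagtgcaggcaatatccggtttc
Irf1: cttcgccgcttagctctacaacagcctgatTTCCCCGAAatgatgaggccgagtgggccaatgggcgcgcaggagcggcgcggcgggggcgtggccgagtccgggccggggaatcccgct
The intervals are chr11:58199436-58199555 (+ strand), chr11:58214857-58214976 (+ strand), chr11:48992247-48992366 (- strand), chr3:142530216-142530335 (+ strand) and chr11:53769894-53770013 (+ strand), the last being 1 of 2 starts listed for Irf1, of which the other has neither motif in its 120 bases. In Igtp, Irgm2 and Tgtp1, members of the GTPase family that act on vacuoles of intracellular microbes, a GAS match lies directly before an ISRE core. In Gbp7, a guanylate-binding protein, 2 GAS matches precede an ISRE core, and the promoter of Irf1, the transcription factor induced early by interferon-gamma, holds a GAS match alone. An ISRE core lay in the 250 bases before the start of 10 of the 11 interferon-inducible GTPase genes with a promoter entry (90.9%), against 436 of 12716 tested genes with one (3.43%). A GAS match lay in 6 of those 11 (54.5%), against 7.27% of all. Among genes called higher by at least 2-fold, 16.4% of 317 held an ISRE core and 12.6% a GAS match, and among those called lower by at least 2-fold the shares were 2.68% and 4.01% of 299. Of the 14 largest increases, 9 had a promoter entry, of which 1 held an ISRE core and 0 a GAS match. The promoters of MHC class II genes held an ISRE core in 1 of 10 and a GAS match in 1 of 10. Those of MHC class I and immunoproteasome genes held an ISRE core in 3 of 16 and a GAS match in 1 of 16 (6.25%). A match is a string of letters and was not tested for binding.

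The 5 genes whose promoters are shown all rose. Igtp was at 205, 55.7, 55.3, 195 and 30.9 FPKM in replicates 1 to 5 of NEMOIEC-KO Il23a-/- and at 5.94, 7.64, 6.31, 5.63 and 4.95 in the controls (log2 fold change 3.67, SE 0.44, adjusted p = 8.61e-06). Irgm2 reached 56.8, 31.1, 23.9, 52.1 and 20.4 against 5.53, 7.4, 6.52, 5.99 and 5.86 FPKM (log2 fold change 2.36, SE 0.28, adjusted p = 8.61e-06). In both genes replicates 1 and 4 were highest and every NEMOIEC-KO Il23a-/- library lay above every control. Tgtp1 rose from 0.194, 0.185, 0.156, 0.513 and 0.088 to 38.8, 6.52, 5.1, 24.7 and 2.38 FPKM (log2 fold change 3.84, SE 0.60, adjusted p = 0.000207). Gbp7 changed by 1.66 on the log2 scale (SE 0.31) and Irf1 by 1.08 (SE 0.16), the smallest of the 5, from 89.4 ± 9.11 to 195 ± 51.4 FPKM (SD, n = 5).

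Of 19 interferon-inducible GTPases tested, 18 rose and none fell, with a median log2 change of 2.36. Ifi47 was the largest, at 126, 40.4, 39.9, 108 and 30.2 FPKM against 1.4, 2.46, 1.87, 1.74 and 1.41 (log2 fold change 4.71, SE 0.38, adjusted p = 2.73e-08), and Iigp1 followed with 114, 22.8, 16.2, 75.5 and 9.08 against 1, 2.19, 1.07, 1.17 and 0.888 (log2 fold change 4.21, SE 0.58, adjusted p = 5.4e-05). The calls numbered 15 with sex as a term, 11 with the library code and 12 with the smooth muscle score. In NEMOIEC-KO against the same control libraries, where 32.2% of all genes were called, 11.9% higher and 20.3% lower, 18 of the 19 rose, with a median of 2.64.

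Interferon-gamma signalling genes and targets behaved in the same direction, with 17 of 22 higher, 1 lower and a median of 1.81. Ido1, which degrades tryptophan, was at 453, 38.4, 59.7, 437 and 36.7 FPKM against 2.87, 4.31, 1.63, 1.04 and 1.67 in the controls (log2 fold change 5.43, SE 0.80, adjusted p = 0.000112). Replicates 1 and 4 stood far above the other 3 NEMOIEC-KO Il23a-/- libraries, and all 5 were above the controls. Ubd, a ubiquitin-like modifier, was at 177, 27.7, 51.1, 118 and 49.4 against 1.81, 4.71, 1.93, 2.33 and 2.04 FPKM (log2 fold change 4.56, SE 0.60, adjusted p = 3.19e-05). Ciita, the master activator of MHC class II genes, rose by 2.94 on the log2 scale. Ifngr1, the ligand-binding receptor chain, was the single member that fell, from 222 ± 19.2 to 154 ± 22.4 FPKM (log2 fold change -0.53, SE 0.13, adjusted p = 0.00593). Its call was lost with sex as a term and with the smooth muscle score.

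All 20 tested genes of MHC class I presentation and the immunoproteasome rose, with no overlap between the groups in any of them and a median of 1.70. The nonclassical class I genes H2-Q7 (241, 59.9, 152, 221 and 109 against 3.76, 9.17, 6.29, 6.79 and 5.48 FPKM; log2 fold change 4.41, SE 0.44, adjusted p = 5.36e-07) and H2-Q6 (135, 39.3, 81.9, 118 and 69.1 against 2.63, 7.84, 5.08, 4.38 and 3.72 FPKM; log2 fold change 4.04, SE 0.41, adjusted p = 8.61e-07) changed the most. They are near-identical copies, so reads may have been split between them. Psmb9, a catalytic subunit of the immunoproteasome, was at 158, 91.8, 138, 173 and 82.4 FPKM against 13.8, 13.7, 14.1, 10.3 and 14.3 (log2 fold change 3.18, SE 0.24, adjusted p = 1.53e-08). Tap1, a chain of the peptide transporter, rose by 3.18 and Nlrc5, the activator of class I genes, by 3.86. With sex, library code or smooth muscle score as a term, 19 of 20 were called each time, and leaving out any one library left 20.

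MHC class II presentation rose in 8 of 13 tested members, with a median of 2.94 and none lower. H2-DMb1, the peptide editor chain, was at 159, 92.1, 155, 152 and 127 FPKM against 5.91, 6.78, 5.91, 6.22 and 4.3 (log2 fold change 4.43, SE 0.27, adjusted p = 7.92e-10). Cd74, the invariant chain, was at 3432, 2082, 3442, 3221 and 3255 FPKM against 204, 333, 199, 199 and 185 (log2 fold change 3.79, SE 0.26, adjusted p = 3.4e-09). The spread among the 5 NEMOIEC-KO Il23a-/- libraries was small beside the distance to the controls, and replicate 2 was lowest in both. Of the type I interferon response list, 26 of 28 rose with a median of 1.40, led by Oas3, an antiviral synthetase (13.7, 12.3, 10.2, 9.94 and 14.5 against 0.405, 0.599, 0.75, 0.312 and 0.306 FPKM; log2 fold change 3.70, SE 0.32, adjusted p = 9.74e-08), and Isg15, a ubiquitin-like protein (64, 62.5, 84.9, 67.3 and 47.4 against 5.47, 8.17, 8.9, 4.5 and 5.33 FPKM; log2 fold change 3.25, SE 0.31, adjusted p = 3.61e-07). Those 2 genes differed little among the 5 libraries, unlike Ido1.

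**Figure D1:**
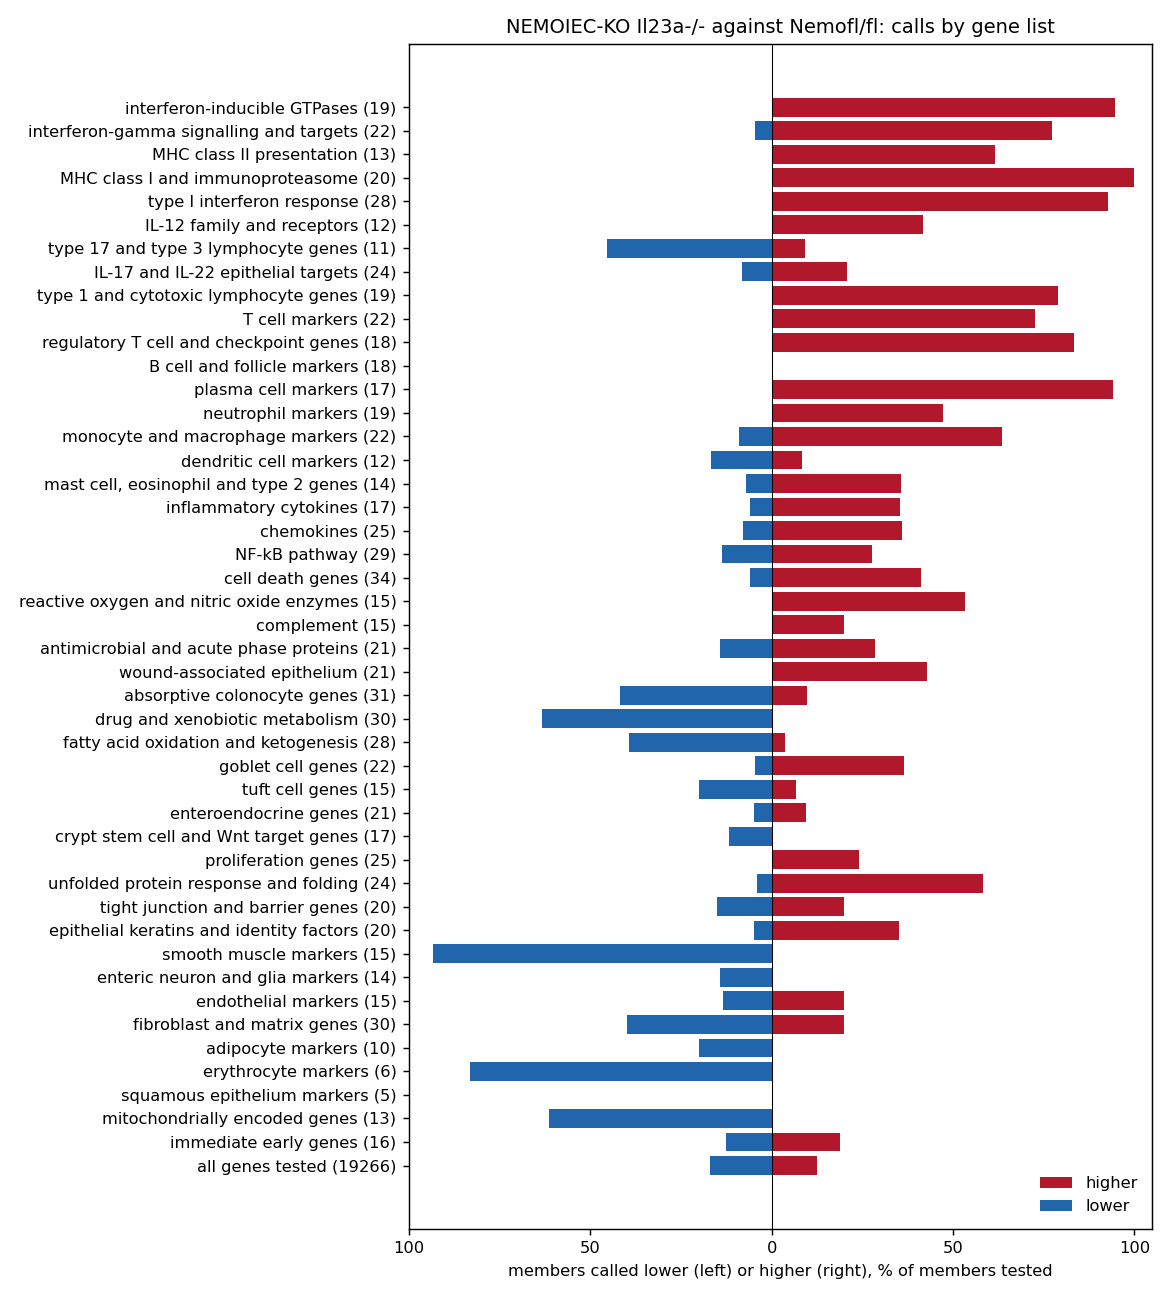
Share of tested members called lower (blue, left) or higher (red, right) in NEMOIEC-KO Il23a-/- against Nemofl/fl, for 45 gene lists (number tested in brackets) and all 19266 genes. MHC class I members were called higher in 20 of 20, smooth muscle markers lower in 14 of 15, and all genes higher in 12.6% and lower in 17%. No smooth muscle marker was called with sex or the library code as a term, fits that are not drawn.

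Secreted defence proteins were also among the largest increases. Retnlb, a goblet cell protein that acts on bacteria, was at 389, 8.69, 539.5, 280.4 and 7.85 FPKM against 1.1, 1.81, 0.18, 0.16 and 0.497 (log2 fold change 6.27, SE 1.30, adjusted p = 0.00227). Slpi, a protease inhibitor, was at 805, 241, 815, 908 and 95.2 against 9.59, 26.3, 16.3, 18.4 and 24.2 (log2 fold change 4.53, SE 0.72, adjusted p = 0.000286), and Pla2g2a, a phospholipase gene, at 122, 11.9, 98.5, 129 and 15.6 against 2.35, 2.09, 1.14, 2.55 and 3.67 (log2 fold change 4.19, SE 0.73, adjusted p = 0.000637). Whether its RNA yields an active enzyme in these mice was not measured. Saa3, an acute phase protein, was at 287, 16.6, 124, 166 and 8.51 against 0.858, 0.93, 0.983, 0.506 and 1.27 (log2 fold change 5.48, SE 1.08, adjusted p = 0.00153). In each of these 4 genes replicates 2 and 5 were the lowest NEMOIEC-KO Il23a-/- libraries, though above every control. Clca4b, of the chloride channel accessory family, was at 191, 33.1, 51.4, 278 and 25.4 against 2.22, 9.23, 2.28, 2.43 and 6.12 FPKM (log2 fold change 4.14, SE 0.99, adjusted p = 0.00529). Retnlb and Clca4b were not called with any of the 3 further terms. Mptx1, a mucosal pentraxin, went the other way, at 48.2, 633, 139.6, 46 and 370.2 against 1948, 713, 921, 1186 and 1274 FPKM (log2 fold change -2.93, SE 0.92, adjusted p = 0.0218), and Retnla fell to 0.231, 0.623, 0.927, 1.85 and 1.11 from 3.32, 18, 9.94, 10.3 and 11.8 FPKM (log2 fold change -2.89, SE 0.61, adjusted p = 0.00268). In all, 6 of 21 antimicrobial and acute phase genes rose and 3 fell, against 14 and 2 in NEMOIEC-KO. Over all genes 12.6% rose and 17% fell in NEMOIEC-KO Il23a-/-, and 11.9% and 20.3% in NEMOIEC-KO. Without replicate 1 or 4 of the NEMOIEC-KO Il23a-/- group 1 fell, in place of 3.

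Markers of lymphocytes and plasma cells rose. T cell markers were higher in 16 of 22 (median 0.91), type 1 and cytotoxic genes in 15 of 19 (median 0.91), and regulatory T cell and checkpoint genes in 15 of 18 (median 0.68), with none lower. The last count was 9 without NEMOIEC-KO Il23a-/- replicate 1. Gzma, a granule protease, was at 12.8, 1.48, 6.53, 8.62 and 2.64 FPKM against 0.0648, 0.298, 0.231, 0.0295 and 0.0305 (log2 fold change 3.16, SE 0.41, adjusted p = 2.72e-05), and Ccl5, a T cell chemokine, at 46.6, 5.34, 20.7, 41.4 and 14.3 against 2.6, 4.17, 3.04, 2.52 and 1.43 (log2 fold change 2.71, SE 0.52, adjusted p = 0.00124). Tnfrsf8 (CD30) rose by 2.82 on the log2 scale (SE 0.46). T cell calls dropped to 4, 1 and 0 of 22 with sex, library code and smooth muscle score as terms, type 1 calls to 7, 6 and 4 and regulatory T cell calls to 4, 4 and 1. Over all 19266 genes, the number higher dropped from 2420 to 534, 1015 and 264 in the same fits. Plasma cell markers rose in 16 of 17 (median 2.09), including Ighg2b at 139, 12.4, 12.4, 139 and 61.8 against 4.54, 1.96, 1.46, 4.07 and 1.64 FPKM (log2 fold change 3.94, SE 0.87, adjusted p = 0.00324), with 9, 1 and 1 called under those terms. None of 18 B cell and follicle markers was called by limma (median 0.06; 0 at an unadjusted p under 0.05).

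Neutrophil RNA divided the NEMOIEC-KO Il23a-/- libraries. S100a9, a calcium-binding protein abundant in neutrophils, was at 271, 0.909, 56.3, 88.6 and 1.51 FPKM, against 1.17, 4.01, 0.702, 0.374 and 0.637 in the controls (log2 fold change 3.74, SE 1.33, adjusted p = 0.039). Retnlg, a neutrophil-associated gene, was at 36.4, 0.102, 6.96, 7.33 and 0.0725 against 0, 0.533, 0.0542, 0.0482 and 0.0499 FPKM (log2 fold change 2.61, SE 0.97, adjusted p = 0.0457). Replicates 1, 3 and 4 were above every control, and replicates 2 and 5 within or near the control range. Of 19 neutrophil markers 9 were called higher, none with sex or smooth muscle score as a term, and the count was 2, 3 or 2 without replicate 1, 3 or 4 of that group, 14 without its replicate 5, and 2 to 4 without any one control. The calls of S100a9 and Retnlg were lost in 7 and 8 of the 10 fits that leave out 1 library. Il1b, a cytokine processed by the inflammasome, was likewise highest in replicates 1, 3 and 4, at 70.7, 2.87, 27.9, 29.7 and 1.97 FPKM against 0.783, 0.514, 0.605, 0.349 and 0.199 (log2 fold change 3.84, SE 0.87, adjusted p = 0.0038), and Il18, another such cytokine, fell from 155 ± 18.4 to 83.8 ± 13.5 FPKM (log2 fold change -0.89, SE 0.14, adjusted p = 0.000167). Inflammatory cytokines rose in 6 of 17 and fell in 1, against 12.6% and 17% of all genes. With sex, library code and smooth muscle score as terms, 0, 2 and 0 of them were higher. The 6 became 2 or 3 without replicate 1, 3 or 4 of NEMOIEC-KO Il23a-/- or replicate 3, 4 or 5 of Nemofl/fl. Over the 514 genes higher by at least 2-fold, replicate 2 was nearest to the controls in 46.9% and replicate 5 in 31.9%. Over the 433 lower by at least 2-fold they were nearest in 58% and 30.3%. Replicate 2 is the male library and replicate 5 the one of its own code and lowest depth, and the part of these in the spread was not tested.

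**Figure D2:**
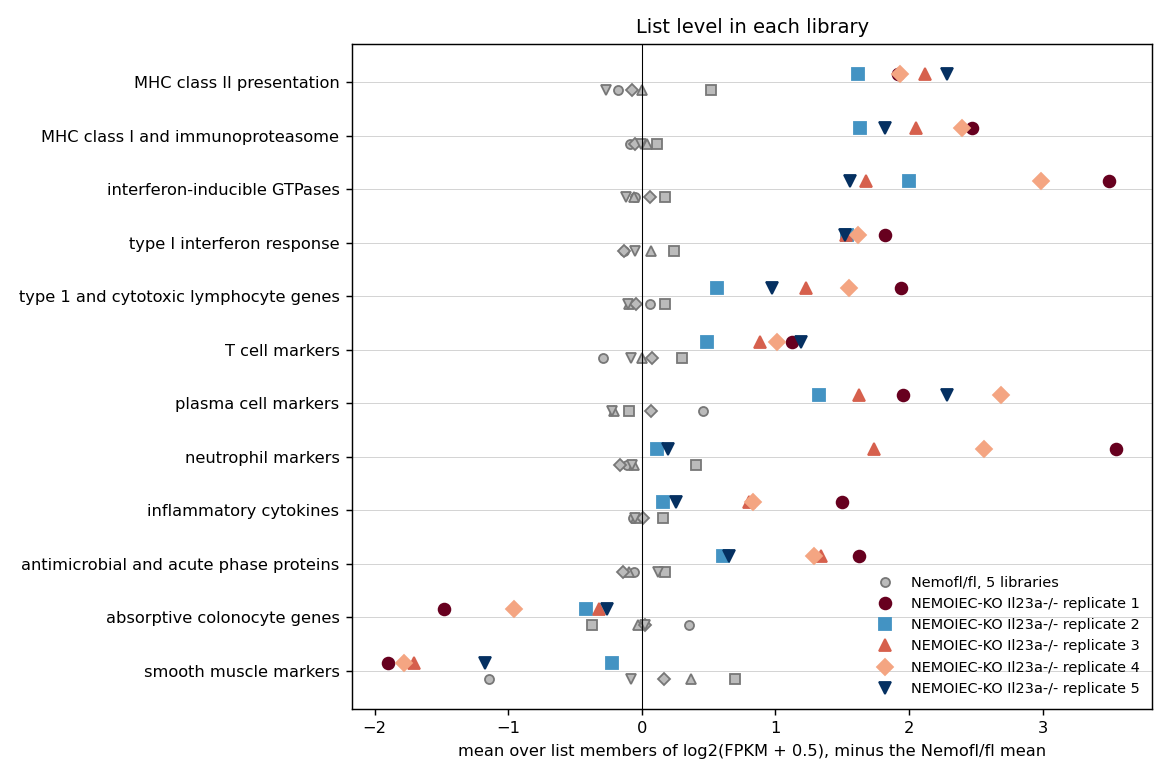
Mean over the members of each list of log2(FPKM + 0.5) minus the Nemofl/fl mean, for each of 5 Nemofl/fl libraries (grey) and 5 NEMOIEC-KO Il23a-/- libraries (coloured by replicate). The neutrophil list lies at 3.55, 0.11, 1.74, 2.56 and 0.20 in replicates 1 to 5, while the MHC class II list lies between 1.62 and 2.28.

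Macrophage-linked genes both rose and fell. Of 22 monocyte and macrophage markers 14 were higher and 2 lower (median 0.85), with 3, 2 and 2 higher when sex, library code and smooth muscle score were terms. Fcgr4, an activating receptor for immunoglobulin G, was at 27.5, 3.1, 8.18, 19.1 and 4.76 FPKM against 1.66, 0.808, 0.534, 0.858 and 0.931 (log2 fold change 2.79, SE 0.49, adjusted p = 0.000666). Ly6c2, a marker of incoming monocytes, was at 16.7, 14.3, 11, 34.6 and 16.5 against 8.02, 2.98, 2.89, 4.19 and 2.75 (log2 fold change 2.03, SE 0.34, adjusted p = 0.000424). The scavenger receptor Cd163 fell from 2.06 ± 0.549 to 0.576 ± 0.341 FPKM and the efferocytosis receptor Mertk from 13 ± 1.4 to 6.31 ± 2.12 (adjusted p = 0.00117 and 0.00156). Chemokines rose in 9 of 25 and fell in 2 (4, 4 and 2 higher under those terms), with Cxcl9, a ligand of CXCR3, at 40.4, 1.99, 9.34, 17 and 2.74 against 0.112, 0.0417, 0.0253, 0.121 and 0.0708 FPKM (log2 fold change 3.96, SE 0.67, adjusted p = 0.000487). Ccl20, the ligand of CCR6, fell, at 0.951, 1.5, 1.47, 0.793 and 1.56 against 2.97, 5.07, 1.71, 6.38 and 3.55 FPKM (log2 fold change -1.26, SE 0.31, adjusted p = 0.00669).

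Of 34 cell death genes 14 were higher and 2 lower (median 0.24), with 8, 6 and 3 higher when sex, library code and smooth muscle score were terms. Zbp1, a nucleic acid sensor, was at 186, 117, 123, 197 and 117 FPKM against 22.3, 16.7, 19.4, 21.9 and 25.4 (log2 fold change 2.75, SE 0.26, adjusted p = 3.03e-07). Ripk3, the necroptosis kinase, was at 73.3, 25.3, 33.9, 70.9 and 24.5 against 10.7, 11.8, 12.8, 13.1 and 13.1 (log2 fold change 1.69, SE 0.39, adjusted p = 0.00431), and Mlkl, its substrate, rose by 1.38. Zbp1 is also an interferon target and stands in both lists. Of 29 NF-kB pathway genes 8 rose and 4 fell, Ikbkg among the latter. Complement genes C2 and C4b rose by 2.64 and 2.15 on the log2 scale, 2 of the 3 called among 15 (6 without NEMOIEC-KO Il23a-/- replicate 2). Over all genes 29.5% were called, 12.6% higher and 17% lower, so the share of complement genes called was not above that of all genes.

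Differentiated epithelial and metabolic genes fell. Of 30 drug and xenobiotic metabolism genes 19 fell and none rose (median -0.87), and of 31 absorptive colonocyte genes 13 fell and 3 rose (median -0.73). Cyp2c55, an arachidonate-metabolising P450, was at 1.16, 16.6, 15.3, 1.39 and 13.4 FPKM against 49.2, 48.7, 75.4, 52.6 and 51.4 (log2 fold change -3.08, SE 0.89, adjusted p = 0.0149). Replicates 1 and 4 were lowest and the 5 libraries did not overlap the controls. Pdk4, which restrains pyruvate oxidation, fell by 1.94 and Slc26a3, the colonic chloride-bicarbonate exchanger, fell by 1.96 on the log2 scale. Ces1f, a carboxylesterase, was at 1.17, 2.29, 1.53, 1.28 and 1.48 against 18.3, 7.04, 11.1, 8.46 and 11.3 FPKM (log2 fold change -2.47, SE 0.45, adjusted p = 0.000944), and the manganese exporter Slc30a10 at 0.122, 0.912, 1.28, 0.11 and 1.33 against 7.21, 3.31, 9.66, 10.3 and 8.91 (log2 fold change -2.82, SE 0.61, adjusted p = 0.00294). Without NEMOIEC-KO Il23a-/- replicate 4 the falling members numbered 11 and 7 in these 2 lists, and the colonocyte count was also 7 without its replicate 1. The falling members numbered 3, 5 and 1 (xenobiotic) and 1, 4 and 1 (colonocyte) with sex, library code and smooth muscle score as terms.

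The other largest decreases were of mixed kinds. Igf2bp2, an RNA-binding protein, was at 0.697, 0.809, 0.982, 0.803 and 2.13 FPKM against 12.1, 5.41, 7.85, 4.65 and 4.9 (log2 fold change -2.22, SE 0.37, adjusted p = 0.000456). Capsl was at 0.327, 0.86, 0.27, 0.405 and 0.28 against 5.13, 3.43, 4.48, 4.1 and 4.01 (log2 fold change -2.37, SE 0.29, adjusted p = 1.08e-05). Both of these were called with each of the 3 further terms, as was Casq2, a calcium-binding protein of muscle (-2.50, adjusted p = 0.00167). Angptl7, Cyp2d12, Odf3b and St8sia5 changed by -2.93, -2.22, -2.62 and -2.71. Snora34, a small nucleolar RNA that poly(A) selection is not designed to capture, was listed at 0, 3.13, 0, 0 and 0 FPKM against 4.62, 7.49, 4.6, 3.97 and 19 (log2 fold change -3.26, SE 0.84, adjusted p = 0.0081). Smooth muscle markers fell in 14 of 15 (median -1.40), in none of which the groups were apart, and mitochondrially encoded genes in 8 of 13 (median -0.82). With sex, library code and smooth muscle score as terms, 0, 0 and 0 of the smooth muscle markers were lower, the score being made from these markers. Under the same terms 1, 1 and 0 of the mitochondrially encoded genes were lower. Smooth muscle calls came to 5 or 6 without replicate 1, 3 or 4 of NEMOIEC-KO Il23a-/- or replicate 2, 3 or 4 of Nemofl/fl, and mitochondrial calls to 4 without NEMOIEC-KO Il23a-/- replicate 3. Whether tissue composition has a part in the other decreases was not tested.

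**Figure D3:**
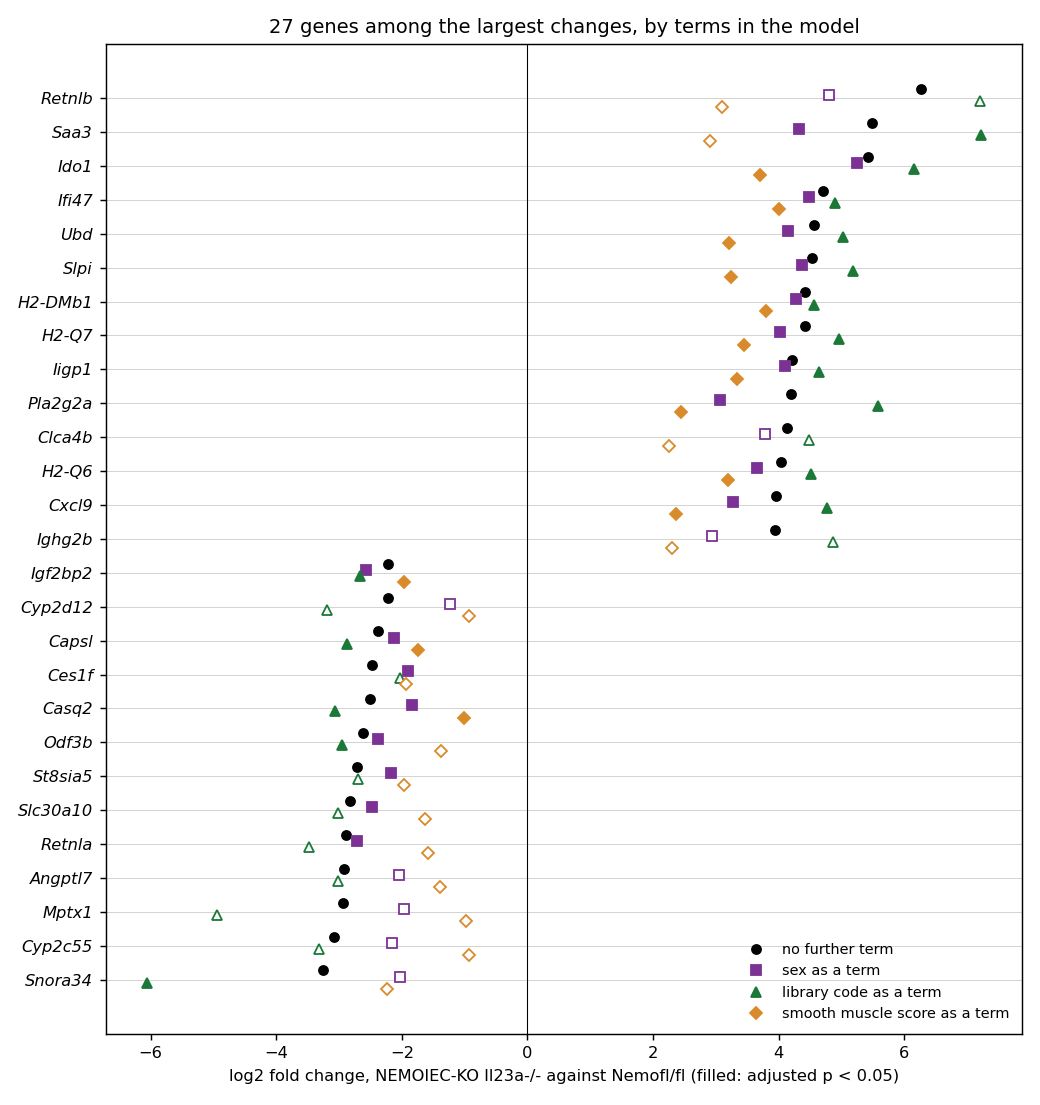
Log2 fold change of 27 of the 28 genes with the largest changes, fitted with no further term (black) or with sex, library code or smooth muscle score as a term, filled where the adjusted p was under 0.05. Ido1, Ifi47, Ubd, Slpi, H2-DMb1, H2-Q7, H2-Q6, Iigp1, Pla2g2a and Cxcl9 are filled in all 4 fits, and Retnlb, Clca4b and Ighg2b only in the first.

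Goblet cell and protein folding genes rose more often than they fell. Of 22 goblet cell genes 8 rose and 1 fell (median 0.12), with Spink4, a secreted goblet peptide, at 4703, 3540.3, 9595, 2878 and 3025 FPKM against 1034, 982, 1218, 1107 and 1528 (log2 fold change 1.88, SE 0.28, adjusted p = 0.000149). Of 24 unfolded protein response genes 14 rose and 1 fell (median 0.51), led by the endoplasmic reticulum proteins Sdf2l1 (1.02) and Manf (0.89). With sex, library code and smooth muscle score as terms, 2, 2 and 2 goblet cell genes and 2, 3 and 1 unfolded protein response genes were higher. Wound-associated epithelial genes rose in 9 of 21, including Ly6a (Sca-1) by 2.28, and in 5 without NEMOIEC-KO Il23a-/- replicate 1 or 4, with 1 called under each of those terms. Among 17 crypt stem cell and Wnt target genes none rose and 2 fell, where 12.6% of all genes rose and 17% fell. Of 25 proliferation genes 6 rose, with 13 and 10 called without NEMOIEC-KO Il23a-/- replicates 2 and 5 and 2 or 3 without replicate 1 or 4 of that group or replicate 1, 2 or 4 of the controls, and 0, 1 and 0 called under the terms. Barrier genes changed both ways, with 4 of 20 higher and 3 lower, near the shares of all genes (12.6% and 17%). The claudin Cldn7 rose by 0.37, and Cldn1 fell by 0.89 and occludin, Ocln, fell by 0.79 on the log2 scale. The 4 became 2 without replicate 1 or 4 of NEMOIEC-KO Il23a-/- or replicate 2 or 4 of Nemofl/fl. Under the terms 1, 0 and 1 barrier genes were higher and 2, 3 and 2 lower. Matrix metalloproteinases Mmp7, Mmp10 and Mmp13 rose by 3.05, 3.19 and 2.67 within a fibroblast and matrix list of which 6 of 30 rose and 12 fell. The 6 became 3 without replicate 1 or 4 of NEMOIEC-KO Il23a-/- or replicate 4 of Nemofl/fl. With sex, library code and smooth muscle score as terms, 0, 0 and 0 of the 30 were higher and 10, 2 and 0 lower. The increases of these metalloproteinases were thus not called under any of the terms.

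Of 24 IL-17 and IL-22 targets tested, 5 rose and 2 fell (median 0.41), against 12.6% higher and 17% lower over all genes, so the number called, 7 of 24, was near the share of all genes (29.5%). In NEMOIEC-KO, 14 rose and none fell against the same Nemofl/fl libraries, and the difference between these 2 counts was not tested. The 5 that rose were Saa3, S100a9, Nos2, Csf3 and Fut2, and the 2 that fell were Saa2 and Pigr. The number higher was 1 or 2 without replicate 1, 3 or 4 of NEMOIEC-KO Il23a-/- or any one control, and 7 at most. The number lower was 0 without replicate 1 or 4 of NEMOIEC-KO Il23a-/- or replicate 1, 3, 4 or 5 of Nemofl/fl, and 1 without replicate 2 or 3 of NEMOIEC-KO Il23a-/-. With sex, library code and smooth muscle score as terms, 1, 1 and 0 of the 24 were higher and none lower. Type 17 and type 3 lymphocyte genes rose in 1 of the 11 tested (Batf, 1.30) and fell in 5, namely Ccl20, Il22ra2, Maf, Rora and Il17f. The number lower was 3 without NEMOIEC-KO Il23a-/- replicate 1 or 4 or Nemofl/fl replicate 2. Il17a, Il22, Il23r, Il21 and Cd163l1, also on this list, were under the filter on low values. The count therefore leaves out the genes of IL-17A, IL-22 and the IL-23 receptor. With the same terms 3, 0 and 0 were lower and none higher. NEMOIEC-KO showed a like pattern against the same Nemofl/fl libraries, with 2 of the 11 higher and 4 lower. The median was -0.24 there and -0.37 in NEMOIEC-KO Il23a-/-. None of the 11 was called between NEMOIEC-KO Il23a-/- and NEMOIEC-KO directly, so the falls are not particular to the group without p19.

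Against NEMOIEC-KO directly, 16 genes (0.083%) were called, 9 higher (0.0467%) and 7 lower (0.0363%), and Duox2 and Nfkbiz were the members of the IL-17 and IL-22 list among them. Duox2, an epithelial peroxide-producing oxidase (chr2:122279247-122298449, - strand), was at 16.2, 14.4, 19.1, 24.3 and 17.4 FPKM in NEMOIEC-KO Il23a-/-, 15.4, 10.5, 11, 11.6 and 22.6 in Nemofl/fl and 63 ± 5.78 in NEMOIEC-KO (log2 difference from NEMOIEC-KO -1.77, SE 0.33, adjusted p = 0.028). Nfkbiz, an IkB-family regulator downstream of IL-17 (chr16:55811375-55838899, - strand), was at 13.1, 13.7, 13.5, 14.9 and 12.1 FPKM in NEMOIEC-KO Il23a-/-, at 12.2, 13.8, 12.2, 11.3 and 12.9 in Nemofl/fl and at 26.7 ± 2.86 in NEMOIEC-KO (difference from NEMOIEC-KO -0.96, SE 0.14, adjusted p = 0.00491). Steap4, a metalloreductase, was at 6.13, 6.31, 3.31, 3.84 and 4.72 against 1.68, 4.5, 3.65, 4.56 and 4.46 in the controls and 21.3 ± 8.73 in NEMOIEC-KO (adjusted p = 0.0228 against the latter). For these 3 genes the NEMOIEC-KO Il23a-/- libraries overlapped the controls and lay under NEMOIEC-KO. The calls against NEMOIEC-KO were lost for Duox2, Nfkbiz and Steap4 with sex as a term (adjusted p = 0.13, 0.051 and 0.13) and with the library code (0.14, 0.095 and 0.11), and for Duox2 and Steap4 with the replicate block (0.06 for each). Leaving out 1 of these 10 libraries lost the call of Duox2 in 8 fits (all but those without NEMOIEC-KO Il23a-/- replicate 1 or NEMOIEC-KO replicate 4), of Steap4 in 4 (without NEMOIEC-KO Il23a-/- replicate 3 or 4 or NEMOIEC-KO replicate 1 or 5) and of Nfkbiz in 0, with log2 differences of -1.88 to -1.70, -2.16 to -1.79 and -1.02 to -0.92. RNA of sex-linked genes read as female in 4 of the 5 NEMOIEC-KO Il23a-/- libraries and 1 of the 5 NEMOIEC-KO libraries. The differences from Nemofl/fl were 0.39 ± 0.33, 0.11 ± 0.14 and 0.36 ± 0.35 (log2, SE), with adjusted p = 0.367, 0.599 and 0.448. Muc13, a membrane mucin, was also lower than in NEMOIEC-KO (-0.76, adjusted p = 0.028), as were Strc, Gm12891 and Gm9458. Of these 4, Gm9458 alone was also called with sex and with the library code as a term. Leaving out 1 library lost the calls of Muc13 and Strc in 6 of 10 fits each, of Gm12891 in 7 and of Gm9458 in 0.

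The antimicrobial lectin Reg3b and the nitric oxide synthase Nos2 are given here as genes chosen after their values were seen. Reg3b was at 13.1, 0.254, 1.3, 3.96 and 0 FPKM against 91.6 ± 186 in NEMOIEC-KO (-2.65, SE 1.37, adjusted p = 0.523), with a SD in NEMOIEC-KO above its mean. Nos2 was at 15.8, 1.63, 4.09, 9.54 and 0.768 against 35.5 ± 23.8 FPKM (-2.66, SE 0.73, adjusted p = 0.133). For comparison, the interferon-linked Ifi47, H2-DMb1 and Psmb9 differed from NEMOIEC-KO by -0.33 ± 0.38, -0.17 ± 0.27 and -0.22 ± 0.24 (log2, SE), none past the threshold. A p that misses the threshold does not show the levels to be equal.

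**Figure D4:**
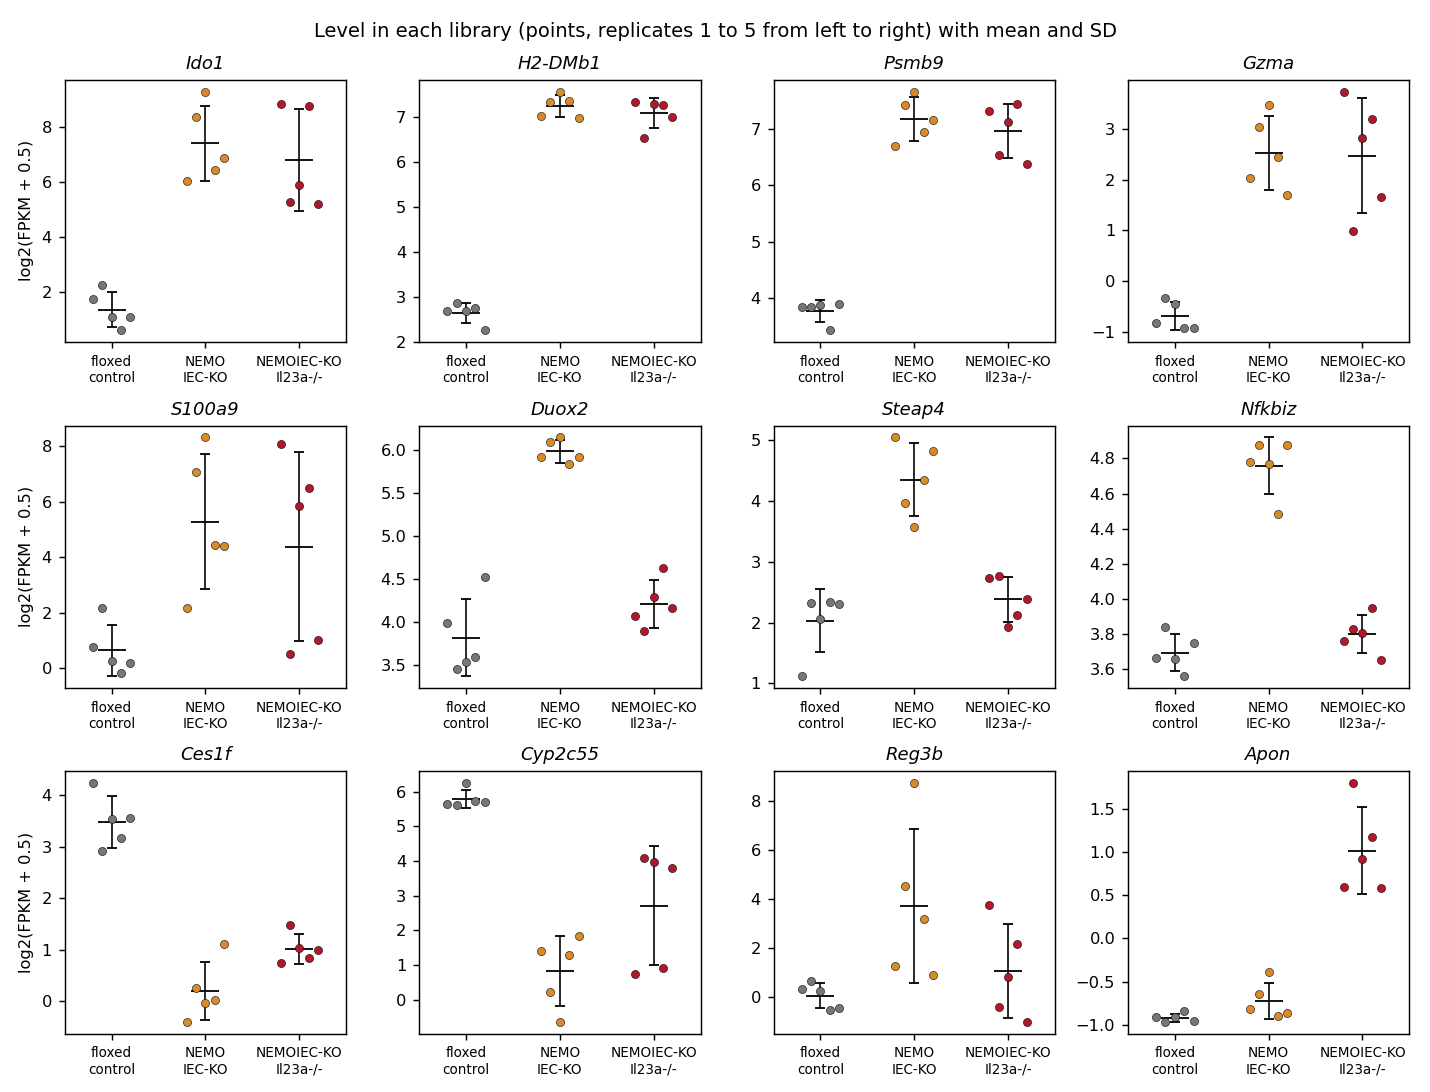
log2(FPKM + 0.5) of 12 genes in each library of Nemofl/fl (grey), NEMOIEC-KO (orange) and NEMOIEC-KO Il23a-/- (red), with the mean and SD of each group. Ido1, H2-DMb1, Psmb9 and Gzma are high in both NEMO-deleted groups, Duox2, Steap4 and Nfkbiz are high in NEMOIEC-KO alone, and Apon is high in NEMOIEC-KO Il23a-/- alone.

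Of the 9 genes higher than in NEMOIEC-KO, 3 lie on chromosome 10 near Il23a. Apon, an apolipoprotein gene, lies 0.0402 Mb away and was at 1.02, 2.97, 1.39, 1.76 and 0.993 FPKM against 0.0313, 0.0131, 0.0319, 0.057 and 0.0148 in the controls and 0.111 ± 0.0936 in NEMOIEC-KO (difference from NEMOIEC-KO 1.74, SE 0.15, adjusted p = 1.66e-06). Gls2, a glutaminase, lies 0.0861 Mb away (0.96, adjusted p = 0.0228) and Atp23, a mitochondrial protease, 1.39 Mb away (0.84, adjusted p = 0.0142). Of 104 genes tested within 5 Mb, these 3 were called against NEMOIEC-KO. The 3 were also higher than in the controls. Apon was called against NEMOIEC-KO in every alternative that tested it. Gls2 was lost with sex, the library code or the replicate block, and in 4 of the 10 fits that leave out 1 library. Atp23 was lost with sex and in 2 of those 10 fits. In all, Gls2 was called in 15 and Atp23 in 19 of 23 alternatives. The other 6 were Cbs, Coq8a, Eci1, Hsd17b10, Poldip2 and 2210016L21Rik, of which Cbs and Coq8a were called with sex as a term and Cbs and Poldip2 with the library code. Leaving out 1 library lost the calls of Eci1 and 2210016L21Rik in 8 of 10 fits each and of Hsd17b10 and Poldip2 in 7 each. Cbs and Coq8a were lost in 0. Cbs, which condenses homocysteine with serine, was at 18.1, 16, 18.7, 17.5 and 15.9 FPKM, 15.7, 10.1, 15, 14 and 15.5 in the controls and 8.41 ± 1.4 in NEMOIEC-KO. Coq8a, needed for coenzyme Q synthesis, lay between these groups at 11.3 ± 0.89 FPKM, with 22.3 ± 2.24 in the controls and 6.1 ± 0.751 in NEMOIEC-KO.

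Set against the double mutants without p40 and without p35, interferon-inducible GTPases were higher in the colitis without p19. Against NEMOIEC-KO Il12b-/-, 985 genes were called (5.11%), 372 higher (1.93%) and 613 lower (3.18%), and 15 of 19 interferon-inducible GTPases were higher. Against NEMOIEC-KO Il12a-/-, 224 were called (1.16%), 147 higher (0.763%) and 77 lower (0.4%), with 12 of the 19 higher. Ido1 was at 205 ± 219 FPKM, 1.94 ± 0.946 without p40 and 8.72 ± 14.1 without p35 (SD, n = 5 each; log2 differences 5.62 and 4.61, adjusted p = 0.00017 and 0.00348). Ubd, Iigp1, Tgtp1 and Tnfrsf8 were the next largest increases against the group without p40, and Hsd3b3, Gzma, Gbp8 and Btnl2 against the group without p35. Retnla was lower than without p40 or p35 (-3.58 and -2.62, adjusted p = 0.00119 and 0.0359). Snora34, Zfp991 and Inmt were also among the largest decreases against the group without p40, and St8sia5, Rps3a3, Hist1h2al and Rps3a2 against the group without p35. Rps3a3, Rps3a2 and Hist1h2al belong to families of near-identical copies, so their levels are uncertain. All 5 libraries of each of those 2 groups carry the code K002000079. RNA of sex-linked genes read as female in 2 of 5 libraries of each, and in 4 of 5 of NEMOIEC-KO Il23a-/-. The mean smooth muscle score was 0.19 without p40, 0.48 without p35 and -0.73 without p19. These 2 comparisons were fitted with no further term and with no library left out, so the part of sex and tissue composition was not tested.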

How the data were processed

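RNA sequencing of distal colon from 25 mice (5 per genotype) was deposited as 1 table of FPKM values per gene. FPKM was computed by the authors; their processing notes name TopHat2 2.0.10, Cufflinks 2.1.1, DESeq2 1.10.1 and the build GRCm38, without saying which step made this table. The submitters state that the 5 mice per genotype are biological replicates. A gene was kept if 5 or more of the 25 libraries reached 0.2 FPKM (19266 of 49452 identifiers), and log2(FPKM + 0.5) was fitted with limma 3.58.1 in R 4.3.3 with a mean per genotype over all 25 libraries, a variance trend and 20 residual degrees of freedom. Tests were two-sided, with Benjamini-Hochberg adjustment over all genes tested, and the method was tested on simulated data. The simulated noise was independent between genes and held no difference of sex, library code or tissue composition. That test therefore cannot show how such differences affect the calls. Fold changes of low genes are understated by the pseudocount. FPKM depends on the composition of a library, mitochondrial RNA included, and cannot show absolute amounts.

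The genes named are the 14 largest changes in each direction that were called, did not overlap between groups and reached a mean of 1 FPKM in the higher group, with predicted genes and immunoglobulin or T cell receptor segments left unnamed (3 among the higher), up to 10 in each direction against NEMOIEC-KO, 5 in each direction against the other double mutants, the 2 largest in each direction of each of 45 lists, and the 5 most variable called genes (Retnlb, S100a9, Snord118, Xist and Retnlg). Others are named as members of a list with a value, and some genes the rule selects are not reported here. The groups compared, the members and the lists were chosen with earlier results of these data known, so no count of a list is independent support. Replicate numbers do not pair the samples: same-numbered libraries of different groups correlated at a median of 0.0071 (n = 50 pairs) and differently numbered ones at 0.0086 (n = 200).

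Sex was read from sex-linked RNA, and the smooth muscle score is the mean over smooth muscle markers of log2(FPKM + 0.5) after centring each gene. Alternatives were a sex, library code or smooth muscle term, a replicate block, other pseudocounts (0.1 and 1), filters, scalings and fits, and leaving out each library. They were run for the comparisons with Nemofl/fl and with NEMOIEC-KO only. Gene positions are from the GENCODE annotation on GRCm38, and promoter sequences from RefSeq on GRCm38.p6.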

Additional observations from a re-analysis of the deposited data

Results flagged for a closer look

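In 25 of 316 groups of 5 libraries examined for the named genes, 1 library stood apart from the other 4 by more of the group's range than Dixon's criterion for 5 samples (0.71) allows; chance flags about 1 in 20 groups. Values are FPKM. Nemofl/fl replicate 2 stood apart for Ubd (4.71), Iigp1 (2.19), Cd74 (333), Il12rb1 (0.220), Stat4 (0.551), Retnlg (0.533), Strc (0.2999), Krt13 (24.8) and, on the low side, Cbs (10.1). Krt13 is a keratin of squamous epithelium. NEMOIEC-KO Il23a-/- replicate 2 stood apart for Cd74 (2082), Trbc2 (4.86), Aqp4 (10.52), Xist (0.0279), Snora34 (3.13) and Capsl (0.861). It is also the male library of its group, which is the measure that Xist reads. Nemofl/fl replicate 1 stood apart for Steap4 (1.68), Pdk4 (2.43), Cldn1 (1.66) and mt-Nd5 (1476), and Nemofl/fl replicate 3 for Cyp2c55 (75.4). The remaining ones were Igf2bp2 (2.13) and Snord118 (listed at 0) in NEMOIEC-KO Il23a-/- replicate 5, Ccl28 (16.4) and Gm9458 (0.0352) in replicate 1 of that group, and Gm9458 (0.0390) in Nemofl/fl replicate 5. None of these was weighed further.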

How the results depend on the processing

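Of the 28 genes with the largest changes, 25 were called with each of the 10 libraries left out in turn. The exceptions were Cyp2c55 (without NEMOIEC-KO Il23a-/- replicate 4), Cyp2d12 (without replicate 1) and Mptx1 (without replicate 1 or 4). Against Nemofl/fl, genes higher and lower (2420 and 3266) numbered 534 and 633 with sex as a term, 1015 and 576 with the library code, 264 and 160 with the smooth muscle score, and 76 and 31 in male libraries only, a choice made after seeing the data that leaves 1 NEMOIEC-KO Il23a-/- library, assumed to vary like the other groups. Leaving out 1 library gave 1540 to 2755 higher and 1850 to 3806 lower, with 1540 and 1850 without NEMOIEC-KO Il23a-/- replicate 4 and 1970 lower without its replicate 3. With the replicate block 2328 and 3283 were called. The share of calls that were higher was 42.6%, 52.5% with median-of-ratios scaling and 31.5% without mitochondrially encoded genes, and the median change of all genes was -0.049, -0.008 and -0.102. Against NEMOIEC-KO, the 9 higher and 7 lower became 5 and 3 with the replicate block, 5 and 1 with the library code, 3 and 1 with sex, 65 and 50 with the smooth muscle score, and 3 and 4 with only the 2 groups fitted. Genes higher numbered 14 with a pseudocount of 0.1, 5 without the trend and 5 without mitochondrially encoded genes. Leaving out 1 library gave 3 to 26 higher and 2 to 10 lower, with 26 without NEMOIEC-KO Il23a-/- replicate 1 and 20 without NEMOIEC-KO replicate 4. Among single genes, Actg2 reversed to 0.178 with the smooth muscle score, Xist to -0.064 with sex and -0.111 in male libraries, where S100a9 (-0.139) and Retnlg (-0.026) also reversed. The cause was not tested. The difference between K002000079 and K002000081 is estimated through NEMOIEC-KO, which holds 2 of one code and 3 of the other, so its fit rests on few libraries. K002000080 is held by NEMOIEC-KO Il23a-/- replicate 5 alone, so its term fits that library exactly. Results with the library code therefore rest on replicates 1 to 4 of that group, without 1 of the 2 libraries nearest to the controls. Without read counts, depth limits low genes such as Il23a to an unknown degree.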
